A study of Mus musculus with 20 samples.

Results

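The adhesion receptors described here are 39 genes of 54304 in the table: 26 integrin subunits, the integrin-like gene Itgbl1, 4 intercellular adhesion molecules (Icam1, Icam2, Icam4, Icam5), Vcam1, the selectins Selp and Sele, and 5 neural-type immunoglobulin adhesion molecules (Alcam, Ncam1, Cadm1, Cadm3, L1cam). They were chosen by gene symbol, and all 39 symbols were found. Icam4, an erythroid adhesion molecule, was listed at 0 in all 20 libraries. The antisense gene Gm47079 covers all of its exon bases, and the counting of such reads is not stated. Itgad, the alpha subunit of a leukocyte integrin, was above 0 in 1 library, at 0.46 log2 CPM. The other 37 were tested.

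RNA sequencing of polyadenylated RNA was done on PDGFRb+ stromal cells sorted out of gonadal white adipose tissue of males. Fibro-inflammatory progenitors (FIPs) were CD45-, CD31-, PDGFRb+ and LY6C+, and adipogenic precursor cells (APCs) were CD45-, CD31-, PDGFRb+, LY6C- and CD9-. Each cell type came from Mural-Zfp423TG mice (labelled Mural-Zfp423 transgenic) and from control mice, which gave FIPs labelled transgenic, control FIPs, APCs labelled transgenic and control APCs, with 5 libraries each. All mice were 8 weeks old in the labels, were kept at 30 °C and had been fed for 1 month on a diet with 60% of its energy as fat. No group on another diet or at another temperature was analysed here. Which promoter drives the transgene was not stated in the labels. RNA of 2 mice was pooled in each library and 10 mice were used per genotype, so within a genotype the pools of both cell types drew on the same mice, and which pools share them is not stated.

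Integrins are pairs of an alpha and a beta chain that span the cell membrane and hold cells to the matrix. The chains present decide the ligand: RGD-containing proteins such as fibronectin, vitronectin and osteopontin, the collagens, or the laminins of basement membranes. A smaller set, built on the beta2 and beta7 chains, is made by leukocytes and binds ICAM, VCAM and cadherin molecules on other cells. Selectins slow leukocytes on the vessel wall, after which ICAM1 and VCAM1 hold them firmly. In fat, these molecules are known both from the anchoring of stromal cells in their matrix and from the entry of immune cells during obesity.

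Values are log2 CPM (CPM, reads of a gene scaled to a common library size) as deposited, with a CPM of 1 or less listed as 0. Depth, read from the spacing of the lowest values, was 6.6 to 8.5 megareads per library. The stromal markers averaged 9.31 to 9.36 log2 CPM in every group, among them Pdgfra and Dcn. Ly6c1 was higher in FIPs (7.07 to 7.41 log2 CPM in FIP libraries, 4.88 to 5.83 in APC libraries), as was Cd9 (6.51 to 6.67 in FIP libraries, 4.12 to 5.15 in APC libraries). Both proteins were used in the gates. Ptprc, the CD45 gene, was nevertheless present at 3 to 5.12 log2 CPM and Pecam1, the CD31 gene, at 5.74 to 6.79 over the 20 libraries. Zfp423 did not rise with the transgenic label: it averaged 5.53 ± 0.04 log2 CPM in FIPs labelled transgenic and 5.47 ± 0.12 in control FIPs, and 4.70 ± 0.27 in APCs labelled transgenic and 4.97 ± 0.17 in control APCs (SD, n = 5 each). Whether reads of the transgene were counted under Zfp423 is not stated, so these values do not show whether the transgene was expressed. Genotype directions below therefore rest on the labels.

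Levels of different genes were compared per kilobase of exon. In control FIPs the order began with Itga5, the alpha chain of the classical fibronectin receptor, at 7.05 ± 0.08 log2 CPM per kb (SD, n = 5), then Itgb1, the beta chain shared by the collagen, laminin and fibronectin receptors, at 6.93 ± 0.07, and Itgb5, a partner of the alphav chain, at 6.55 ± 0.05. The first pair differed by less than the sum of their SDs. Itga11 (5.83 ± 0.08), Icam1 (5.76 ± 0.11), Sele (5.54 ± 0.22) and Cadm3 (5.5 ± 0.13) came next and lay within about their spreads of a neighbour. In control APCs the order per kb was Itgb1 (6.92 ± 0.02), Itga5 (6.77 ± 0.10), Sele (6.16 ± 0.18), Itgb5 (6.07 ± 0.04) and Icam1 (5.84 ± 0.14), with Cadm3 far lower at 2.58 ± 0.10. Of the leukocyte alpha chains, Itgax ranked 23 of 36 in both groups (0.82 ± 0.49 in control FIPs, 0.94 ± 0.53 in control APCs). Itgam was lower in the order, at −0.34 ± 0.30 in control FIPs and 0.20 ± 0.42 in control APCs, as were Itgal and Itgae. The place of Itgam is uncertain: Gm49368 shares 68.7% of its exon bases on the same strand, and the counting of shared reads is not stated.

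FIPs and APCs of control mice were compared first, to describe how the adhesion equipment of the LY6C+ and LY6C- cells differs in the fat of control mice on this diet. FIPs had more RNA of the alphav integrins of the beta3 and beta5 type, of the fibrillar collagen receptors Itga2 and Itga11, of Itga9 and of the neural-type molecules Ncam1 and Cadm3. APCs had more of Itga8, Itga1, the laminin receptors, Vcam1, Sele and Cadm1. In limma, with Benjamini-Hochberg adjustment over 17435 genes and a threshold of 0.05, 10 members were higher in control FIPs (19.6% of all genes tested were) and 15 lower (27.9% of all genes). Together they were 67.6% of the 37 tested, against 47.5% of all genes. The libraries of the groups did not overlap for 18 members, and for 31.4% of all genes. The median difference over the members was −0.45 log2 units, beside −0.06 over all genes.

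**Figure D1:**
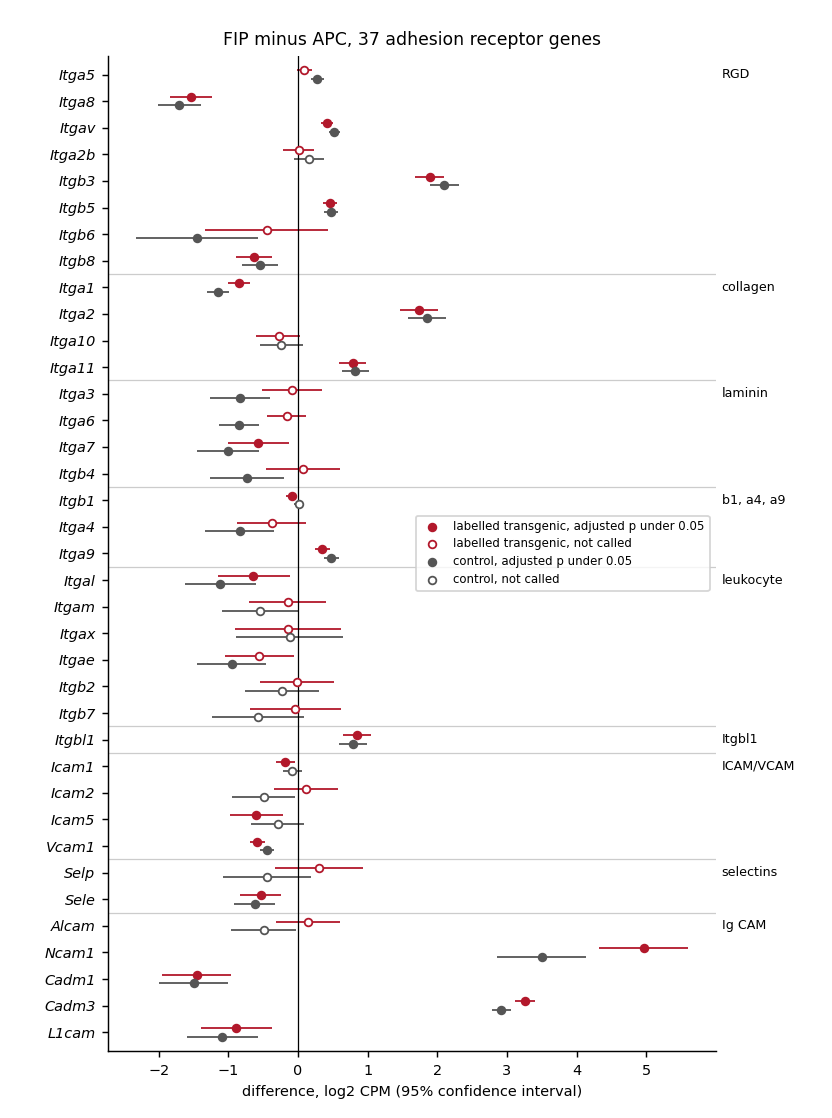
Difference between FIPs and APCs in log2 CPM (horizontal axis) for the 37 tested adhesion receptor genes, in mice labelled transgenic (red) and control mice (grey), with 95% confidence intervals from limma. Filled points passed an adjusted p of 0.05. Ncam1 and Cadm3 lie farthest to the right, Itga8 and Cadm1 farthest to the left, and the 4 laminin integrins lie below 0 in control mice.

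Among the receptors for RGD ligands, the beta3 chain Itgb3 had the largest difference. It stood at 7.48, 7.29, 7.33, 7.54 and 7.62 log2 CPM in control FIPs, against 4.98, 5.33, 5.53, 5.51 and 5.43 in control APCs. Every FIP library was above every APC library by more than the spread within either group. The difference was 2.1 (SE 0.10), a 4.28-fold higher level in FIPs (limma adjusted p = 6.51e-13).

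The alphav chain Itgav, the partner of beta3, was higher by 0.52 in control FIPs (8.28 ± 0.04 log2 CPM) than in control APCs (7.76 ± 0.06; SD, n = 5 each). Itgb5 was higher by 0.48 (8.38 ± 0.05 in control FIPs, 7.90 ± 0.04 in control APCs). The fibronectin receptor chain Itga5 was higher by 0.28 (SE 0.05, limma adjusted p = 8.76e-05). None of these 3 overlapped between the groups.

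The other alphav partners, Itgb8 and Itgb6, which release active TGF-beta from its latent form, were lower in FIPs. Itgb8 averaged 4.20 ± 0.16 log2 CPM in control FIPs and 4.75 ± 0.32 in control APCs, a difference of −0.55 (limma adjusted p = 0.00136). The epithelial chain Itgb6 was low throughout, at 0.56, 0.77, 0.05, 0.54 and 0 log2 CPM in control FIPs and 0.24, 1.29, 2.13, 2.96 and 2.56 in control APCs. Its groups overlapped because of the first APC library, and its call (−1.45, limma adjusted p = 0.00772) rests on values near the listing limit.

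Itga8, the alpha chain of a receptor for nephronectin and fibronectin, lay the other way from Itgb3. It stood at 2.31, 2.12, 2.20, 1.96 and 2.37 log2 CPM in control FIPs, against 3.83, 3.94, 3.92, 4.18 and 3.62 in control APCs. The groups were far apart, and the fitted value for FIPs minus APCs was −1.71 (SE 0.15, limma adjusted p = 7.09e-09). Itga2b, the platelet chain, was measured at 4.39 ± 0.14 in control FIPs and 4.23 ± 0.13 in control APCs and was not called. Of 8 platelet markers 2 were tested. Gp1ba was lower in control FIPs (0.75 ± 0.45, against 1.84 ± 0.45 in control APCs, limma adjusted p = 0.00159), and Pf4, at 2.24 ± 0.27 in control FIPs and 2.73 ± 0.40 in control APCs, did not pass. Gp9, Gp1bb, Gp6 and Treml1 were listed at 0 in every library of all 4 groups. The part of platelet RNA in the Itga2b level was not tested.

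The collagen receptors split by alpha chain. Itga2 and Itga1 are neighbours on chromosome 13 of the mouse genome (GRCm38), in the same orientation and with 20995 bases between them. Itga2 spans 114833081 to 114932100 and Itga1 spans 114953096 to 115101964. They differed in opposite directions between the cell types.

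Itga2 stood at 4.98, 4.92, 4.98, 4.94 and 4.29 log2 CPM in control FIPs and 2.72, 3.09, 3.25, 3.01 and 2.80 in control APCs. Even the low FIP library, replicate 5, was above all APC libraries, and FIPs were higher by 1.85 (SE 0.13, limma adjusted p = 3.05e-10). Itga1, whose receptor prefers the collagen IV of basement membranes, stood at 5.45, 5.54, 5.57, 5.54 and 5.5 in control FIPs, against 6.37, 6.67, 6.73, 6.82 and 6.77 in control APCs. All FIP libraries were lower, with a difference of −1.15 (SE 0.08, limma adjusted p = 1.27e-10).

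Itga11, a receptor for fibrillar collagen in fibroblasts, averaged 8.19 ± 0.08 log2 CPM in control FIPs and 7.36 ± 0.17 in control APCs, a difference of 0.82 (limma adjusted p = 4.15e-07) without overlap. Itga10, known from cartilage, averaged 2.61 ± 0.19 in control FIPs and 2.85 ± 0.20 in control APCs and did not pass (limma adjusted p = 0.196). Gm42957 shares 33.5% of the Itga10 exon bases on the same strand and was listed at 0 in all 20 libraries. The counting of shared reads is not stated, so the level of Itga10 may be understated. Itgbl1, a secreted protein that resembles a beta chain but lacks its membrane anchor, was higher by 0.79 in control FIPs (7.34 ± 0.08) than in control APCs (6.55 ± 0.15).

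All 4 receptor chains for laminin were lower in control FIPs. Itga6 averaged 5.45 ± 0.23 log2 CPM in control FIPs and 6.30 ± 0.23 in control APCs (−0.85, limma adjusted p = 4.31e-05), and Itga7, the laminin receptor of muscle cells, 5.17 ± 0.11 in control FIPs and 6.17 ± 0.40 in control APCs (−1.0, limma adjusted p = 0.000621). Neither pair overlapped. Itga3 (−0.83) and Itgb4, the hemidesmosome chain (−0.73), also passed in limma, with overlapping groups. The call of Itgb4 ended in 5 of 20 fits with 1 library left out, namely replicates 3, 4 and 5 of the control APCs and 1 and 3 of the control FIPs, with −0.94 to −0.60 over the 20.

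Markers of laminin-receptor-bearing cell types were lower in control FIPs too: 11 of 12 endothelial markers, 9 of 9 mural markers, 7 of 8 mesothelial markers and 5 of 7 tested Schwann cell markers. The summed level of the endothelial list was 584 to 738 CPM in control FIPs and 659 to 871 CPM in control APCs, and that of the mural list 404 to 433 CPM in control FIPs and 749 to 1010 CPM in control APCs. The summed mesothelial level was 186 to 270 CPM in control FIPs and 239 to 264 CPM in control APCs, and the Schwann cell level 35.5 to 47.4 CPM in control FIPs and 61.3 to 104 CPM in control APCs, with Foxd3 at 0 in all libraries of both groups and Sox10 at 0 in all control FIPs. Tek was the endothelial marker that was higher in control FIPs (8.06 ± 0.10 log2 CPM, against 7.23 ± 0.12 in control APCs). Wt1 was the mesothelial marker that was not lower (7.48 ± 0.21 in control FIPs, 7.16 ± 0.41 in control APCs, not passing). Each had the highest level of its list in both groups and so weighs most in the endothelial or mesothelial sum. The part of these cells in the laminin receptor differences was not tested. In RNA of sorted bulk cells, fewer cells of a type and less RNA per cell cannot be told apart.

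The shared beta1 chain Itgb1 stood at 8.96 ± 0.07 log2 CPM in control FIPs and 8.94 ± 0.02 in control APCs, with a 95% confidence interval of the difference of −0.06 to 0.09. Itga9, whose receptor binds tenascin, osteopontin and VCAM1, was higher by 0.48 in control FIPs (7.80 ± 0.06, against 7.32 ± 0.07 in control APCs, limma adjusted p = 1.1e-07) with no overlap. Itga4, the leukocyte receptor chain for VCAM1, was lower by limma in control FIPs (2.53 ± 0.43, against 3.37 ± 0.48 in control APCs, difference −0.84). Along 8.04% of its exon bases Itga4 overlaps Cerkl on the opposite strand, and the library kit did not mark strand.

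Of the 6 leukocyte integrin chains tested, Itgal and Itgae were lower in control FIPs, and Itgam (−0.54), Itgax (−0.12), Itgb2 (−0.23) and Itgb7 (−0.57) did not pass. Itgal, the alpha chain of LFA-1, averaged 1.66 ± 0.30 log2 CPM in control FIPs and 2.78 ± 0.52 in control APCs (−1.12, limma adjusted p = 0.00093). Itgae, the CD103 chain of intraepithelial T cells and some dendritic cells, averaged 0.59 ± 0.15 in control FIPs and 1.55 ± 0.57 in control APCs (−0.95). For both Itgal and Itgae the groups overlapped, and Itgae lay near the listing limit in control FIPs, at 0.41 to 0.80. Itgb2, the shared beta chain of Itgal, Itgam and Itgax, averaged 4.58 ± 0.42 in control FIPs and 4.81 ± 0.44 in control APCs, and the interval of its difference was −0.76 to 0.30.

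Leukocyte markers were measured beside these chains. Lymphocyte markers were lower for 5 of 9 tested genes, with a summed level of 4.22 to 18.4 CPM in control FIPs and 15.5 to 31.5 CPM in control APCs, and with Nkg7 and Klrb1c at 0 in both groups. Macrophage markers were lower for 3 of 16, with a summed level of 308 to 550 CPM in control FIPs and 445 to 672 CPM in control APCs. Dendritic cell markers were lower for 3 of 7, with a summed level of 109 to 164 CPM in control FIPs and 123 to 187 CPM in control APCs, and with Xcr1 at 0. Of 8 neutrophil markers the 2 tested were lower, Csf3r (0.24 ± 0.54 in control FIPs, 1.15 ± 0.52 in control APCs) and Mpo (0.17 ± 0.37 in control FIPs, 0.85 ± 0.44 in control APCs). Their list summed to 0 to 2.3 CPM in control FIPs and 3.09 to 5.12 CPM in control APCs, and S100a8, S100a9, Ly6g, Cxcr2 and Retnlg were at 0 in every library. The part of leukocyte RNA in the values of these chains was not tested.

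**Figure D2:**
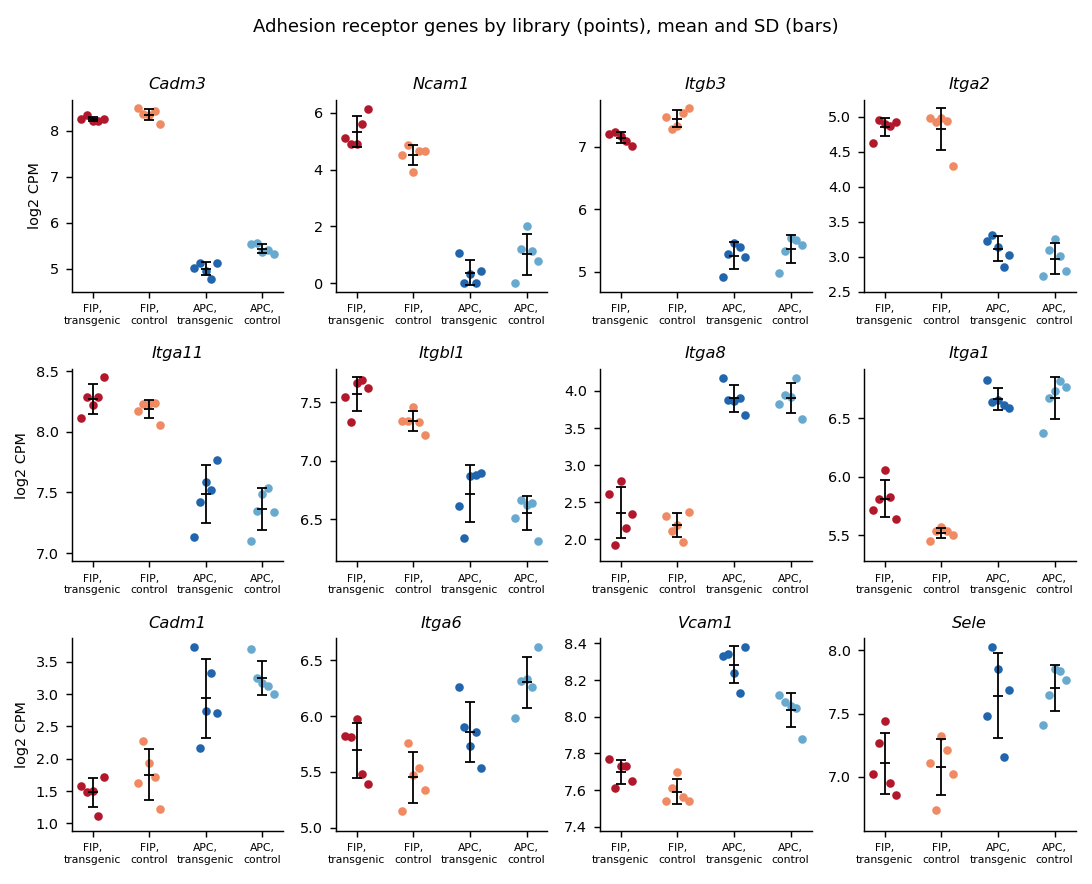
Log2 CPM (vertical axes) of 12 adhesion receptor genes in each of the 20 libraries (points), by group, with the mean and SD of 5 libraries (bars). The FIP and APC libraries form separate clouds for Cadm3, Ncam1, Itgb3, Itga2, Itga8 and Itga1 in both genotypes, whereas Itga6 separates in control mice and overlaps in mice labelled transgenic.

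Among the molecules that leukocytes bind, Vcam1 was lower in control FIPs. It stood at 7.54, 7.61, 7.70, 7.56 and 7.54 log2 CPM in control FIPs, against 8.12, 8.08, 8.06, 8.05 and 7.88 in control APCs. The groups did not overlap, and the difference was −0.45 (SE 0.05, limma adjusted p = 3.61e-07). Icam1 did not pass: it averaged 7.88 ± 0.11 in control FIPs and 7.97 ± 0.14 in control APCs, with an interval of the difference of −0.22 to 0.06. Icam2, an endothelial and leukocyte molecule, was at 2.35 ± 0.31 in control FIPs and 2.84 ± 0.13 in control APCs, and Icam5, known from neurons of the forebrain, at 1.63 ± 0.46 in control FIPs and 1.92 ± 0.16 in control APCs. Neither passed (limma adjusted p = 0.0692 and 0.189).

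Sele, which encodes the endothelial E-selectin, was lower by 0.62 log2 units in control FIPs (7.11, 6.74, 7.32, 7.21 and 7.02 log2 CPM, against 7.41, 7.65, 7.85, 7.84 and 7.77 in control APCs; limma adjusted p = 0.00123). The groups did not overlap. Selp, which encodes P-selectin of endothelium and platelets, averaged 3.15 ± 0.57 in control FIPs and 3.60 ± 0.85 in control APCs and did not pass. Of the endothelial list, which holds neither selectin, 11 of 12 markers differed in the same direction as Sele. Among them were Pecam1 at −0.63 and Cdh5 at −0.61 (limma adjusted p = 0.000112), while Tek lay the other way (0.83). The part of endothelial RNA in the Sele difference was not tested.

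Sele and Selp are neighbours on chromosome 1 with 57.6 kb between them. Their promoters are shown because the genes were called in different comparisons, Sele between cell types and Selp between genotypes in FIPs only. That call of Selp ended in 8 of 20 fits with 1 library left out. Whether the promoters bear on these calls was not tested. Both are on the plus strand of GRCm38.p6 (RefSeq), 200 bases up to the base before the annotated start, chr1:164048034-164048233 for Sele and chr1:164115064-164115263 for Selp. Capitals mark matches to TGANTCA, a loose form of the AP-1 motif with any base at N. The matches lie 73 bases before the start in Sele (TGACTCA) and 139 bases before it in Selp (TGATTCA).
Sele: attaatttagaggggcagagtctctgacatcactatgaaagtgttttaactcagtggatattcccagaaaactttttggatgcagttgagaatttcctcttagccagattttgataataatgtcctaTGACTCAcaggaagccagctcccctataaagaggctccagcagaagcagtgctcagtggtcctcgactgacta
Selp: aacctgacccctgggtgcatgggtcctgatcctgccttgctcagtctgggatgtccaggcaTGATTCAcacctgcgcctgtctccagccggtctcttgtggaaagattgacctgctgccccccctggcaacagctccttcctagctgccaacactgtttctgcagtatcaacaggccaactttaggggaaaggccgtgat

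The neural-type immunoglobulin molecules held the largest differences of all members. Cadm3, a cell adhesion molecule known from neurons, stood at 8.49, 8.37, 8.34, 8.42 and 8.15 log2 CPM in control FIPs, against 5.53, 5.55, 5.36, 5.41 and 5.32 in control APCs. The groups were separated by many times their spread, with a difference of 2.92 (SE 0.07), 7.57-fold (limma adjusted p = 8.63e-18). Ackr1, the gene of an atypical chemokine receptor, shares 361 exon bases (4.98% of the Cadm3 exons) with Cadm3 on the same strand, and it differed likewise, at 5.53 ± 0.21 in control FIPs and 2.40 ± 0.08 in control APCs. How shared reads were counted is not stated.

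Cadm3 lies on the minus strand of chromosome 1 from 173333258 to 173367695. Its promoter is shown because no other member differed with a smaller p. It is given from the minus strand of GRCm38.p6 (RefSeq), chr1:173367696-173367895, with capitals on an AP-1 match (TGANTCA) 186 bases before the start and a match to the early B-cell factor (EBF) motif 137 bases before it.
Cadm3: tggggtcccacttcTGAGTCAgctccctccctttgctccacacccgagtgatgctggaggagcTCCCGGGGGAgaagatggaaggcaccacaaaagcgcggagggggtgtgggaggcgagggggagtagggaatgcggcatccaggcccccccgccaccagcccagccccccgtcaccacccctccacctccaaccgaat

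Promoter windows were held for 27 of the 39 members. Over the 250 bases before the start and on both strands, TGANTCA was found in 4 of these 27 genes (Cadm3, Sele, Selp and Itgax) and in 6.75% of all 32851 promoters. The EBF motif, by name, was found in 1 member gene, Cadm3, and in 0.779% of all promoters. The NF-kB motif, likewise by name, was matched in 0 of the 27 genes and in 7.25% of all promoters. Each motif was searched in 1 fixed form, so sites of another form are missed and 0 matches do not show that a gene lacks sites. Vcam1, Itgb3 and Ncam1 were among the members without a window. These are matches of letters, not measured binding sites.

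Ncam1, the neural cell adhesion molecule, stood at 4.51, 4.86, 3.92, 4.65 and 4.66 log2 CPM in control FIPs and at 0, 1.21, 2, 1.12 and 0.77 in control APCs. The groups were far apart, and on this scale, where 1 APC library was listed at 0, the difference was 3.50 (SE 0.31, limma adjusted p = 9.62e-09). The Schwann cell markers, of a cell type that also makes NCAM1, lay in the opposite direction, as given above. The part of Schwann cell RNA in the Ncam1 values was not tested.

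Cadm1, a relative of Cadm3 that binds itself and Cadm3 across cells, had the opposite direction. It averaged 1.75 ± 0.39 log2 CPM in control FIPs and 3.25 ± 0.27 in control APCs. The groups did not overlap, and FIPs minus APCs gave −1.49 (SE 0.24, limma adjusted p = 3.26e-05). L1cam was lower as well, by limma, at 1.27 ± 0.30 in control FIPs and 2.36 ± 0.40 in control APCs (−1.09). Alcam, the CD6 ligand, averaged 4.02 ± 0.30 in control FIPs and 4.52 ± 0.42 in control APCs and did not pass (limma adjusted p = 0.0768).

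The ligands and inner partners of these receptors were read from lists that hold no member. Of 16 integrin ligand genes 4 were higher and 8 lower in control FIPs. Spp1, which encodes osteopontin, a ligand of alphavbeta3 and alpha9beta1, stood at 7.05 ± 0.13 log2 CPM in control FIPs and 3.16 ± 0.52 in control APCs (3.89, limma adjusted p = 7.99e-12). Fn1, fibronectin, differed by 0.49 and the laminin gene Lama4 by 0.33.

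Vtn, which encodes vitronectin, another ligand of the alphav integrins, lay the other way, at 5.54 ± 0.28 in control FIPs and 7.25 ± 0.02 in control APCs (−1.71, limma adjusted p = 1.26e-08). Mfge8 (−0.30) and the laminin gene Lama5 (−0.83) were lower too. Of 31 genes for integrin adaptors and signalling partners, 12 were higher and 5 lower. The focal adhesion kinase relative Ptk2b was higher by 1.26 (6.73 ± 0.11 in control FIPs, 5.47 ± 0.19 in control APCs), paxillin Pxn by 0.47 and Parva by 0.29, while Apbb1ip (−0.45), Tns2 (−0.21) and Tns1 (−0.19) were lower.

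Of 10 genes for selectin ligands and their glycosylation, 2 were higher, Cd34 (0.58) and Cd44 (0.43), and 5 lower, among them the sialyltransferase genes St3gal4 (−0.31) and St3gal6 (−0.45) and Podxl (−0.79). Of 16 other immunoglobulin adhesion genes tested, 3 were higher, the nectin-family genes Nectin3 (0.48), Pvr (0.80) and Nectin1 (0.41), and 8 lower, among them Nrcam (−0.77), Mcam of mural and endothelial cells (−0.89) and Jam2 (−0.30).

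In mice labelled transgenic, the FIP and APC libraries are separate from those of the control mice, and most of the same members differed. Limma called 9 members higher in FIPs (22.7% of all genes were) and 12 lower (19% of all genes). Together they were 56.8% of 37, against 41.7% of all genes. The groups did not overlap for 15 members, and for 29% of all genes. The median difference was −0.09 over the members and −0.01 over all genes. In both genotypes and in the same direction, 18 of 37 members were called, against 31.1% of all genes, and 0 members were called in opposite directions, against 0.0459% of all genes.

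The 9 members higher in FIPs of both genotypes were Itgav, Itgb3, Itgb5, Itga2, Itga11, Itga9, Itgbl1, Ncam1 and Cadm3. Itgb3 stood at 7.20, 7.24, 7.18, 7.09 and 7.02 log2 CPM in FIPs labelled transgenic, against 4.91, 5.28, 5.46, 5.39 and 5.24 in APCs labelled transgenic (1.89, SE 0.10, limma adjusted p = 3.22e-12). Itga2 stood at 4.63, 4.95, 4.89, 4.86 and 4.93 in FIPs labelled transgenic and at 3.23, 3.31, 3.14, 2.86 and 3.03 in APCs labelled transgenic (1.74, limma adjusted p = 7.41e-10). As in control mice, no library of one cell type reached the range of the other.

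Cadm3 stood at 8.26, 8.34, 8.22, 8.22 and 8.26 log2 CPM in FIPs labelled transgenic, against 5.02, 5.13, 4.94, 4.78 and 5.12 in APCs labelled transgenic. The fitted difference was 3.26 (SE 0.07, limma adjusted p = 1.74e-18). Ncam1 stood at 5.12, 4.89, 4.91, 5.60 and 6.15 in FIPs labelled transgenic and at 1.06, 0, 0.33, 0 and 0.45 in APCs labelled transgenic. Both genes were again separated completely, and with 2 APC libraries of Ncam1 listed at 0 the fitted difference was 4.97 (SE 0.31). Itgav (0.41), Itgb5 (0.46), Itga9 (0.35), Itga11 (0.79) and Itgbl1 (0.85) had sizes near those in control mice, and their groups did not overlap.

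The 9 members lower in FIPs of both genotypes were Itga8, Itgb8, Itga1, Itga7, Itgal, Vcam1, Sele, Cadm1 and L1cam. Itga8 averaged 2.36 ± 0.34 log2 CPM in FIPs labelled transgenic and 3.90 ± 0.18 in APCs labelled transgenic (−1.54, limma adjusted p = 2.97e-08). Itga1 averaged 5.81 ± 0.16 in FIPs labelled transgenic and 6.67 ± 0.10 in APCs labelled transgenic (−0.85), Vcam1 7.70 ± 0.07 in FIPs labelled transgenic and 8.28 ± 0.10 in APCs labelled transgenic (−0.59), and Cadm1 1.48 ± 0.22 in FIPs labelled transgenic and 2.93 ± 0.61 in APCs labelled transgenic (−1.45), by limma. Itgb8 (−0.63) did not overlap either.

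Sele (−0.53), Itga7 (−0.57), Itgal (−0.64) and L1cam (−0.89) overlapped between the cell types. The calls of Itga7 and Itgal were the less stable: leaving out 1 library ended the call of Itga7 in 5 of 20 fits and that of Itgal in 7 of 20. For Itga7 these were replicates 1, 3 and 4 of the APCs and 4 and 5 of the FIPs labelled transgenic, with differences of −0.71 to −0.40 over all 20 fits. For Itgal they were replicates 1, 3 and 5 of the APCs and 4 and 5 of the FIPs labelled transgenic and replicates 2 and 3 of the control FIPs, with −0.75 to −0.48 over all 20. Both calls also ended with no filter on low values, that of Itga7 with the replicate block and with only these 2 groups fitted, and that of Itgal with array weights.

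Itga5, Itgb6, Itga3, Itga6, Itgb4, Itga4 and Itgae passed in control mice and did not pass in mice labelled transgenic, and Itgb1, Icam1 and Icam5 the reverse. Icam5 stood at 2.18, 2.30, 2.18, 2.12 and 1.96 log2 CPM in FIPs labelled transgenic, against 2.55, 3.06, 2.57, 2.52 and 3.03 in APCs labelled transgenic (−0.60, limma adjusted p = 0.0106), with no overlap. Itgb1 (−0.09) and Icam1 (−0.18) differed little, and their calls ended in 7 of 20 fits each with 1 library left out. For both genes these 7 included replicates 2 and 5 of the APCs and 1, 2, 3 and 5 of the FIPs labelled transgenic, with replicate 3 of these APCs for Itgb1 and replicate 4 for Icam1. Both calls also ended with median centring or the trimmed mean shift, which are other scalings of the libraries. That of Itgb1 ended too with quantile normalization, either replicate block and only these groups fitted, and that of Icam1 with no filter on low values.

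Of the 4 laminin receptor chains 1 was lower in FIPs labelled transgenic, Itga7, beside 4 in control FIPs, and the difference between genotypes did not pass for any of them (limma adjusted p = 0.175 for Itga6, 0.282 for Itga3, 0.337 for Itgb4 and 0.522 for Itga7). Itga6 stood at 5.82, 5.81, 5.97, 5.48 and 5.39 log2 CPM in FIPs labelled transgenic and at 6.26, 5.90, 5.73, 5.86 and 5.54 in APCs labelled transgenic, overlapping ranges (−0.16, limma adjusted p = 0.365). Itgb4 differed by 0.07 and Itga3 by −0.09. Of the endothelial list, 1 of 12 markers was lower and 1 higher in FIPs labelled transgenic, with summed levels of 650 to 854 CPM in FIPs labelled transgenic and 558 to 769 CPM in APCs labelled transgenic. Tek, at 8.02 ± 0.05 log2 CPM, again had the highest level of this list in FIPs labelled transgenic and weighs most in that sum. Of 8 mesothelial markers 2 were lower and 1 was higher, and Schwann cell markers were lower for 1 of 7. Of 9 mural markers 5 were lower, with summed levels of 434 to 541 CPM in FIPs labelled transgenic and 732 to 841 CPM in APCs labelled transgenic. The part of these cells was not tested.

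The difference between genotypes in the FIP and APC comparison was tested directly as an interaction. Limma called 0 of 37 members and 0% of all genes, while 8 members had an unadjusted p under 0.05: Itga5, Itga1, Itga3, Itga6, Itgb4, Itgb1, Ncam1 and Cadm3. All genes were not counted at that unadjusted level. The smallest adjusted p among the members were those of Cadm3 (0.34, limma adjusted p = 0.163), Itga6 (0.68, limma adjusted p = 0.175) and Ncam1 (1.47, limma adjusted p = 0.193). The median of the interaction was 0.17 over the members and 0.05 over all genes, and centring each library on its median moved that of all genes to −0.06.

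In the lists for FIPs and APCs labelled transgenic, of 31 adaptor genes 10 were higher and 8 lower in FIPs, with Ptk2b (1.64), Pxn (0.40) and Parva (0.26) higher and Apbb1ip (−0.54), Actn4 (−0.19) and Tns2 (−0.27) lower. Of 16 ligand genes 5 were higher and 7 lower, with Spp1 at 7.25 ± 0.22 log2 CPM in FIPs labelled transgenic and 2.09 ± 0.50 in APCs labelled transgenic, Fn1 (0.48) and the periostin gene Postn (0.44) higher, and Vtn (−1.80), Mfge8 (−0.39) and Col4a1 (−0.37) lower.

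Of the 10 selectin ligand genes Cd34 (0.50) and Cd44 (0.35) were higher, and Fut7, a fucosyltransferase, was lower, at 0 in every FIP library labelled transgenic and 0.78 ± 0.61 in APCs labelled transgenic. Of 16 other immunoglobulin genes 4 were higher, among them Nectin3 (0.37), Pvr (0.70) and Nectin1 (0.39), and 3 lower, Nrcam (−0.67), Jam2 (−0.26) and Mcam (−0.46).

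Genotypes were then compared within FIPs, since the study asks what perivascular mesenchymal cells do for macrophage accrual in obese fat. Limma called 1 member, Selp, which was higher in FIPs labelled transgenic. That is 2.7% of 37 members, against 0.373% of all genes called in either direction and 0.241% called higher. An unadjusted p under 0.05 was reached by 11 members, without a count over all genes to set it against. The groups did not overlap for 5 members and for 2.89% of all genes. The median difference was 0.01 over the members and 0.01 over all genes.

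**Figure D3:**
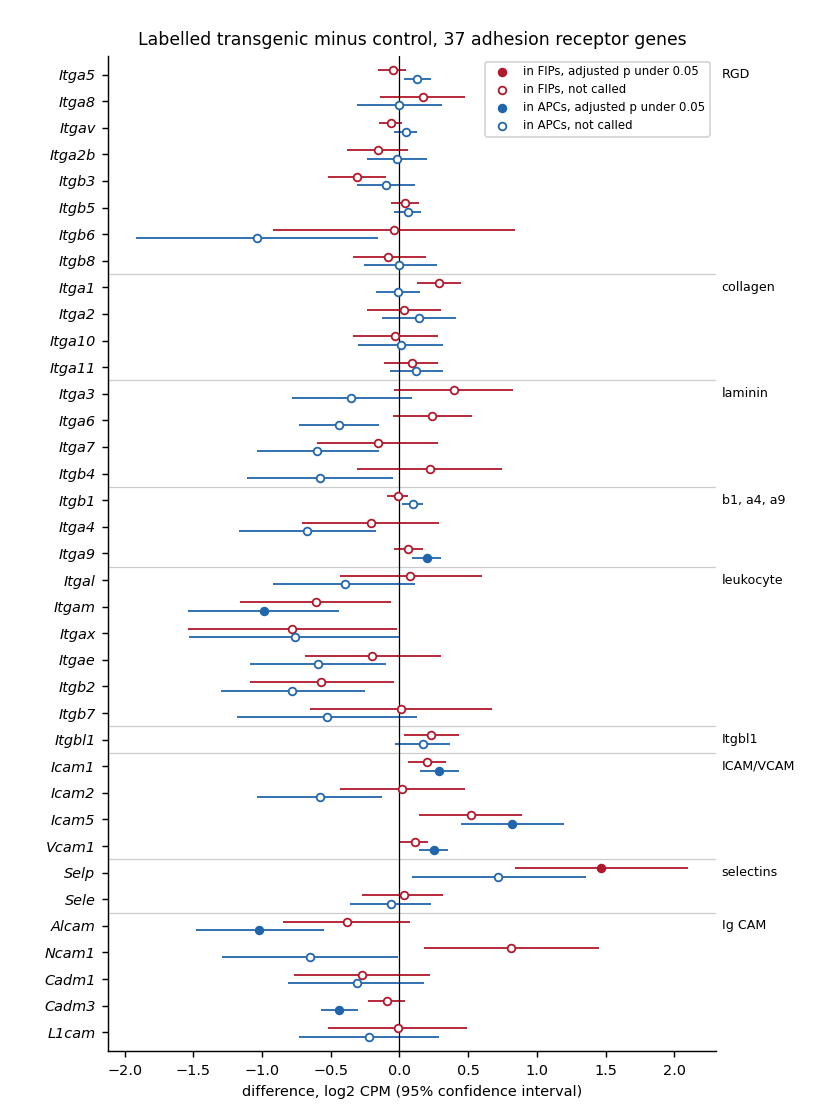
Difference between libraries labelled transgenic and control libraries in log2 CPM (horizontal axis) for the 37 tested adhesion receptor genes, in FIPs (red) and in APCs (blue), with 95% confidence intervals from limma. Filled points passed an adjusted p of 0.05: Selp in FIPs, and Itga9, Itgam, Icam1, Icam5, Vcam1, Alcam and Cadm3 in APCs.

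Selp stood at 4.67, 4.72, 4.65, 4.62 and 4.44 log2 CPM in FIPs labelled transgenic, against 3.36, 3.45, 3.77, 2.87 and 2.30 in control FIPs. The transgenic-labelled libraries were close together and above all controls, and the difference was 1.47 (SE 0.30, 2.77-fold, limma adjusted p = 0.0366). The call ended with any 1 of replicates 1 to 4 of the FIPs labelled transgenic or of replicates 1, 2, 4 and 5 of the control FIPs left out, with differences of 1.26 to 1.62 over the 20 fits, and with no filter on low values. In APCs Selp averaged 4.32 ± 0.29 in libraries labelled transgenic and 3.60 ± 0.85 in control libraries, a difference of 0.72 that did not pass (limma adjusted p = 0.139).

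Other products of vessel cells were read beside Selp. Sele averaged 7.11 ± 0.24 log2 CPM in FIPs labelled transgenic and 7.08 ± 0.22 in control FIPs, an interval of the difference of −0.27 to 0.32. Of the 12 endothelial markers limma called 0 in this comparison, with 8 at an unadjusted p under 0.05, a median difference of 0.33 and a summed level of 650 to 854 CPM in FIPs labelled transgenic and 584 to 738 CPM in control FIPs. Of the platelet list, Pf4 averaged 1.77 ± 0.69 in FIPs labelled transgenic and 2.24 ± 0.27 in control FIPs, and Gp1ba 1.02 ± 0.28 in FIPs labelled transgenic and 0.75 ± 0.45 in control FIPs. Neither passed (limma adjusted p = 0.604 and 0.805), the list summed to 3.76 to 6.57 CPM in FIPs labelled transgenic and 5.18 to 8.78 CPM in control FIPs, and Gp9, Gp1bb, Gp6 and Treml1 were at 0. The part of endothelial and platelet RNA in the Selp difference was not tested. The opposite-strand genes Gm16548 and Gm16587 overlap 9.93% and 4.21% of the Selp exon bases, and neither exceeded 0.71 log2 CPM.

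The other members without overlap between genotypes in FIPs did not pass after adjustment. Itgb3 averaged 7.15 ± 0.09 log2 CPM in FIPs labelled transgenic and 7.45 ± 0.14 in control FIPs (−0.31, limma adjusted p = 0.227), Itga1 5.81 ± 0.16 in FIPs labelled transgenic and 5.52 ± 0.05 in control FIPs (0.29, limma adjusted p = 0.107), and Icam1 8.08 ± 0.06 in FIPs labelled transgenic and 7.88 ± 0.11 in control FIPs (0.20, limma adjusted p = 0.246). Ncam1 was at 5.33 ± 0.54 in FIPs labelled transgenic and 4.52 ± 0.36 in control FIPs (0.81, limma adjusted p = 0.314).

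In the lists for the same comparison, 1 of 16 ligand genes was higher in FIPs labelled transgenic, the laminin gene Lama1 (4.46 ± 0.66 log2 CPM, against 3.09 ± 0.24 in control FIPs, limma adjusted p = 0.0366). Limma called 0 of 31 adaptor genes (4 at an unadjusted p under 0.05), 0 of 10 selectin ligand genes (0 at that level) and 0 of 16 other immunoglobulin genes (4 at that level).

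Within APCs, 3 of the 4 ICAM and VCAM genes tested were called higher in the libraries labelled transgenic. Icam2 lay the other way and did not pass (2.26 ± 0.43 log2 CPM in APCs labelled transgenic, 2.84 ± 0.13 in control APCs). Limma called 7 members, 18.9% of 37 against 8.01% of all genes. Itga9, Icam1, Icam5 and Vcam1 were higher (2.1% of all genes were), and Itgam, Alcam and Cadm3 lower (5.91% of all genes). An unadjusted p under 0.05 was reached by 19 members. The share of all genes at that level was not counted, so this is not read as a result about the members. The groups did not overlap for 4 members and for 2.92% of all genes. The median difference was −0.10 over the members and −0.03 over all genes. These calls depend on the estimate of spread shared by the 4 groups: fitted with the APC libraries alone, limma called 0 members and 0 of all genes, against 1396 genes when the 4 groups were fitted together. With 1 library left out the number of members called lay between 2 and 17.

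**Figure D4:**
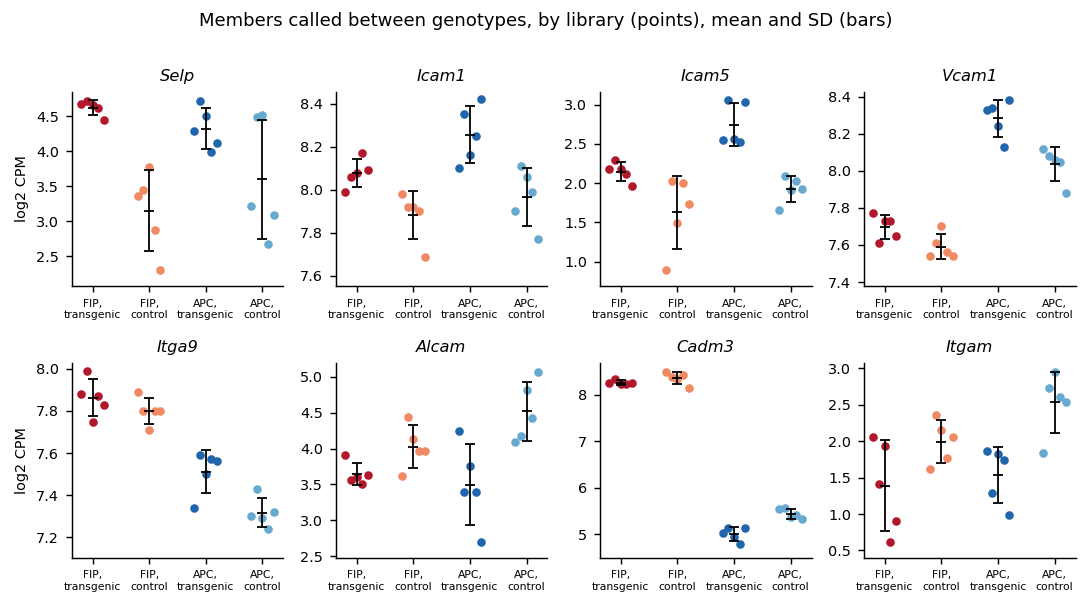
Log2 CPM (vertical axes) of the 8 members called between genotypes in FIPs or APCs, in each of the 20 libraries (points), by group, with the mean and SD of 5 libraries (bars). Selp is high and tight in FIPs labelled transgenic. Vcam1, Icam5 and Cadm3 do not overlap between the APC groups, while Icam1, Itga9, Alcam and Itgam do.

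Vcam1 stood at 8.33, 8.34, 8.24, 8.13 and 8.38 log2 CPM in APCs labelled transgenic, against 8.12, 8.08, 8.06, 8.05 and 7.88 in control APCs. The groups came close and did not overlap, with a difference of 0.25 (SE 0.05, 1.19-fold, limma adjusted p = 0.013), and the call stood in all 20 fits with 1 library left out. Icam1 stood at 8.10, 8.35, 8.16, 8.25 and 8.42 in APCs labelled transgenic and at 7.90, 8.11, 8.06, 7.99 and 7.77 in control APCs. Its groups overlapped by 1 library, and the difference was 0.29 (SE 0.07, limma adjusted p = 0.0207).

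The call of Icam1 ended without replicate 2 or 5 of the APCs labelled transgenic or without replicate 5 of the control APCs, with differences of 0.24 to 0.33 over the 20 fits. In FIPs, Vcam1 differed by 0.11 and Icam1 by 0.20 between genotypes, and neither passed (limma adjusted p = 0.457 and 0.246). The interaction of neither passed (Vcam1 −0.14, limma adjusted p = 0.395, and Icam1 −0.09, limma adjusted p = 0.678).

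Icam5, which lies 3.25 kb after Icam1 on chromosome 9, stood at 2.55, 3.06, 2.57, 2.52 and 3.03 log2 CPM in APCs labelled transgenic, against 1.66, 2.09, 1.91, 2.03 and 1.93 in control APCs. Every library labelled transgenic was higher, by 0.82 on average (SE 0.18, limma adjusted p = 0.017), and the call ended without replicate 2 or 5 of the APCs labelled transgenic. The antisense genes Gm26592 and Gm47079 overlap 26.8% and 3.94% of the Icam5 exon bases, and Gm47079 overlaps 11.7% of those of Icam1. Both were higher in APCs labelled transgenic too: Gm47079 averaged 1.09 ± 0.25 in APCs labelled transgenic and 0.29 ± 0.21 in control APCs (limma adjusted p = 0.0153), and Gm26592 0.49 ± 0.14 in APCs labelled transgenic and 0.10 ± 0.22 in control APCs (limma adjusted p = 0.035). Reads of the 2 strands cannot be told apart in these libraries.

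Itga9 averaged 7.51 ± 0.10 log2 CPM in APCs labelled transgenic and 7.32 ± 0.07 in control APCs, a difference of 0.20 (limma adjusted p = 0.0288) with overlapping groups. Its call ended in 7 of 20 fits with 1 library left out, namely replicates 2 to 5 of the APCs labelled transgenic and replicates 3, 4 and 5 of the control APCs. Itgb1 did not overlap between the groups, at 9.04 ± 0.08 in APCs labelled transgenic and 8.94 ± 0.02 in control APCs, and did not pass (limma adjusted p = 0.0934).

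Cadm3 was lower in APCs labelled transgenic, at 5.02, 5.13, 4.94, 4.78 and 5.12 log2 CPM, against 5.53, 5.55, 5.36, 5.41 and 5.32 in control APCs. All APC libraries labelled transgenic were below all controls, with −0.44 as the fitted value (SE 0.07, limma adjusted p = 0.00231), and the call stood in all 20 fits with 1 library left out. Ackr1, which shares exon bases with it, differed by −0.57 (limma adjusted p = 0.0224). FIP markers moved with it: 6 of 7 were lower in APCs labelled transgenic, with a summed level of 285 to 334 CPM in APCs labelled transgenic and 341 to 389 CPM in control APCs, and Ly6c1 averaged 5.10 ± 0.16 in APCs labelled transgenic and 5.64 ± 0.12 in control APCs. Their part in the Cadm3 difference was not tested. In FIPs the Cadm3 difference between genotypes was −0.09, with an interval of −0.23 to 0.04.

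Alcam stood at 4.24, 3.40, 3.76, 3.39 and 2.70 log2 CPM in APCs labelled transgenic and at 4.09, 4.18, 4.81, 4.43 and 5.07 in control APCs. The first library labelled transgenic lay within the control range and the others below it, and the difference was −1.02 (SE 0.22, limma adjusted p = 0.0172). The call ended without replicate 5 of either APC group, with −1.20 to −0.82 over the 20 fits. Mesothelial markers were lower in the same comparison for 2 of 8, with summed levels of 176 to 242 CPM in APCs labelled transgenic and 239 to 264 CPM in control APCs. All 5 tested erythroid markers were lower, with 454 to 1040 CPM in APCs labelled transgenic and 802 to 1540 CPM in control APCs. The part of these cells was not tested.

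Itgam, the CD11b chain of macrophages and other myeloid cells, stood at 1.86, 1.29, 1.82, 1.74 and 0.98 log2 CPM in APCs labelled transgenic, against 1.83, 2.72, 2.95, 2.61 and 2.53 in control APCs. The first control library was as low as the transgenic-labelled ones, and the difference was −0.99 (SE 0.26, limma adjusted p = 0.0325). Gm49368 shares 68.7% of the Itgam exon bases on the same strand and was listed at 0 in all 20 libraries. Because the counting of shared reads is not stated, the level of Itgam may be understated. The call of Itgam ended in 6 of 20 fits, without replicates 2, 4 or 5 of the APCs labelled transgenic or replicates 3, 4 or 5 of the control APCs. Differences of the same sign that did not pass were measured for its beta chain Itgb2 (−0.78, limma adjusted p = 0.0605) and for Itgax, the CD11c chain (−0.76, limma adjusted p = 0.197).

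These chains stood beside macrophage markers, although CD45+ cells had been gated out. Of 16 macrophage markers 9 were lower in APCs labelled transgenic, among them Adgre1 (−1.0, limma adjusted p = 0.022) and Csf1r (−0.85, limma adjusted p = 0.0182). None of the 16 was at 0 in every library of a group. Fcgr1, also called, lay near the listing limit, at 0.25 ± 0.41 log2 CPM in APCs labelled transgenic and 1.06 ± 0.45 in control APCs. The summed level of the 16 markers was 299 to 468 CPM in APCs labelled transgenic and 445 to 672 CPM in control APCs. The mean over the list differed by −0.66 log2 units (exact permutation test, two-sided, p = 0.0159, adjusted p = 0.0486 over 52 tests of marker lists, n = 5 each). The 52 include the FIP list between FIPs and APCs. That list holds the gate genes Ly6c1, Ly6c2 and Cd9 and was bound to differ there. Such tests lower the adjusted p of the other lists, so a value just under 0.05 is not read as passing. In the same comparison the Schwann cell list differed by −0.52 with the same p and adjusted p, and 1 of its 7 tested markers was called lower. The FIP marker list differed by −0.42 (exact permutation test, two-sided, p = 0.00794, the smallest possible, adjusted p = 0.0295), and the other 10 lists had an adjusted p above 0.05. In FIPs the same sum was 221 to 389 CPM in libraries labelled transgenic and 308 to 550 CPM in control libraries, with 0 of 16 called and 8 at an unadjusted p under 0.05, and Itgam differed by −0.61, Itgb2 by −0.57 and Itgax by −0.78 there, none of them passing. Whether these chains were measured in the stromal cells or in leukocyte RNA was not tested.

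**Figure D5:**
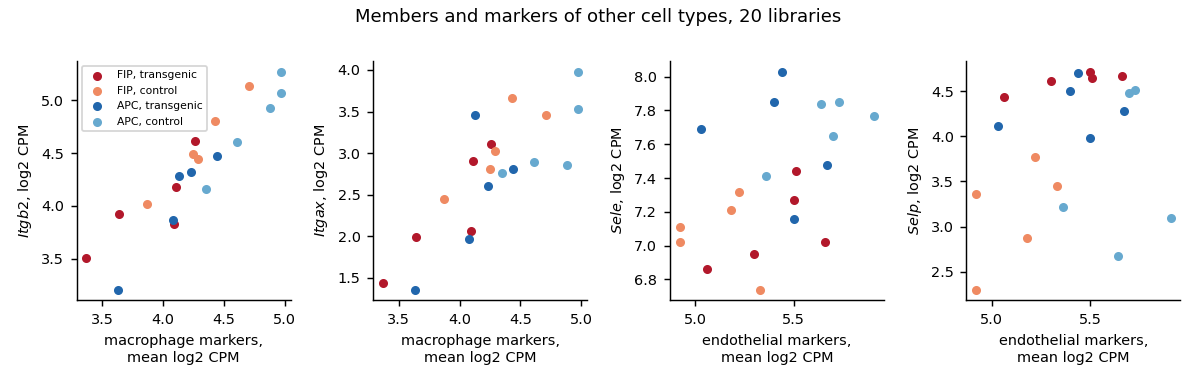
Log2 CPM of Itgb2 and Itgax against the mean log2 CPM of 16 macrophage markers, and of Sele and Selp against the mean of 12 endothelial markers, in each of the 20 libraries, coloured by group. Itgb2 spans 3.21 to 5.27 over a macrophage mean of 3.37 to 4.97. Selp lies at 4.44 to 4.72 in the FIP libraries labelled transgenic, over an endothelial mean of 5.06 to 5.66, above all control FIP libraries. In APCs Selp reaches 4.71 in libraries labelled transgenic and 4.52 in control libraries. The points share libraries and depth, so the plots are descriptions.

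The lists in APCs showed few calls. Of 31 adaptor genes Cd47 was higher (0.15, limma adjusted p = 0.0209), and Ptk2b (−0.50, limma adjusted p = 0.00435) and Fermt1 (−0.54, limma adjusted p = 0.0457) lower. Of 16 ligand genes Spp1 (2.09 ± 0.50 log2 CPM in APCs labelled transgenic, 3.16 ± 0.52 in control APCs, limma adjusted p = 0.013) and Lama5 (−0.48, limma adjusted p = 0.0496) were lower. St3gal6 (−0.31) was lower of 10 selectin ligand genes, and F11r (−0.61) and Cadm4 (−0.75) of 16 other immunoglobulin genes, by limma.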

How the data were processed

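According to the submitters' processing notes, the tools used were Trim Galore 0.4.1, HISAT2 2.0.1, featureCounts 1.4.6 and DESeq2 1.6.3, with the GRCm38 (mm10) build. Neither an annotation release nor a strand setting was stated. The authors deposited 1 table of log2 CPM values for 54304 genes and 20 libraries, to 2 decimals. Values of 1 CPM or less are 0 in it, so differences of genes near 0 are understated. No counts are held: within a tolerance of 0.0051 log2 units, 72.6 to 80.0% of low values were whole reads, too few for a count test. Depth differed little, at 7.83 to 8.5 megareads in FIPs labelled transgenic, 6.76 to 8.23 in control FIPs, 6.6 to 8.38 in APCs labelled transgenic and 7.6 to 8.0 in control APCs.

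From these values, 17435 genes above 0 in at least 5 libraries were fitted in limma 3.58.1 (R 4.3.3) with 1 mean per group and 16 residual degrees of freedom, trended variances, and Benjamini-Hochberg adjustment over all of them at 0.05. This treats pools as independent, although FIP and APC pools share mice, and p-values measure the spread between these pools. Counts at an unadjusted p under 0.05 were made for the members and lists, not for all genes. Marker lists were scored by their mean log2 CPM and tested over all 252 splits of 10 libraries, for which the smallest p is 0.00794. Alternatives covered scaling, filters, an added 1 before the logarithm, variance models, the groups fitted, blocks and each library left out. The trimmed mean of M-values shift was computed in base R. The procedure was tested on simulated data.

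All 39 members are named. List genes are named by the smallest adjusted p, up to 3 per direction, list and comparison, with the gate genes and Zfp423. Ackr1, Cerkl, Gm42957, Gm49368, Gm16548, Gm16587, Gm26592 and Gm47079 were added after their values were seen, for their overlap with members, as were the single marker genes named. The members and lists were chosen with earlier results of these data known. Coordinates and exon lengths are from GENCODE M21 (GRCm38), which matched 54276 genes. Promoters are from RefSeq and were searched in Python 3.11.15.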

Additional observations from a re-analysis of the deposited data

Results flagged for a closer look

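In groups of 5 libraries, 5 of 142 combinations of member and group held 1 library set apart from the other 4, and chance alone sets apart about 5% of such groups. Replicate 5 of the control FIPs was the low library in 3 of them: Itga2 at 4.29 log2 CPM against 4.92 to 4.98 in the others, Itga3 at 1.97 against 2.52 to 2.63, and Icam1 at 7.69 against 7.90 to 7.98. Without that library the FIP and APC comparison of control mice still called 25 members, and the call of Selp between genotypes in FIPs ended. Itga2 was also low in replicate 1 of the FIPs labelled transgenic, at 4.63 against 4.86 to 4.95. L1cam was low in replicate 1 of the control APCs, at 1.66 against 2.44 to 2.70.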

How the results depend on the processing

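Of 1666 recalculated differences of called members, 1585 kept their direction and their side of the threshold, 81 kept their direction and lost the threshold, and 0 changed sign. The counts of members called were the less stable between genotypes, and the cause was not tested. In FIPs, 1 member was called, 0 with no filter on low values, 2 with array weights, 2 with only the groups compared, and 0 to 2 with 1 library left out. In APCs, 7 were called, 14 with array weights, 0 with only the groups compared, and 2 to 17 with 1 library left out: 2 without replicate 5 of the APCs labelled transgenic, 3 without its replicate 2 or without replicate 5 of the control APCs, 14 without replicate 1 of the APCs labelled transgenic and 17 without replicate 1 of the control APCs. The interaction gave 0, 2 with array weights, and 0 to 1 with 1 library left out, the 1 being without replicate 1 of the APCs labelled transgenic. Between FIPs and APCs the counts were 24 to 28 in control mice and 17 to 22 in mice labelled transgenic with 1 library left out.

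FIP and APC pools share mice, but no label ties the replicate numbers to them: deviations of same-numbered FIP and APC libraries correlated at 0.059 to 0.333 in mice labelled transgenic and 0.036 to 0.269 in control mice, highest with the own number for 2 of 5 and 3 of 5 libraries. With the replicate block, 25 members were called in control mice, 19 in mice labelled transgenic, 1 between genotypes in FIPs, 8 in APCs and 0 in the interaction. With the replicate block within genotype, the counts were 30, 22 and 0 for the comparisons of cell types and their interaction. Centring each library on its median moved the share of higher calls over all genes to 52.8% from 41.3% for FIPs against APCs of control mice, to 43.8% from 54.5% in mice labelled transgenic, to 51.9% from 64.6% between genotypes in FIPs, and to 62.6% from 26.2% between genotypes in APCs, where all calls numbered 2199 in place of 1396. The members split 10 higher and 15 lower in control mice under each scaling. Depth limits genes near 1 CPM, which rest on fewer than 10 reads a library.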
